A study of Mus musculus with 16 samples.

Results

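Molecular chaperones and folding enzymes were followed in mouse liver under a diet with coffee diterpenes. The set holds the genes of the Hsp70, Hsp90, small heat shock, DnaJ, chaperonin, disulfide isomerase, FK506-binding and cyclophilin families named by their symbols, with Manf, Calr, Canx, P4hb, Atf4 and Tcp1. It came to 68 genes (78 probes) of 8923 genes and unnamed probes on the array, and 67 of the 68 had values in at least 6 mice and were tested. Dnajc21, with 5 mice, was not tested. By textbook location of the protein, 19 members belong to the endoplasmic reticulum (ER) and 4 to mitochondria. Another 43, on neither of these lists, were counted as cytosolic or nuclear, so this class can hold proteins of other places. Atf4, a stress transcription factor, and Hspd1-ps3, which the annotation names as a pseudogene of mitochondrial Hsp60, stand apart from these classes.

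Each of 8 female APOE3Leiden mice, transgenic for a variant of human apolipoprotein E on a C57BL6/JIco background, was fed for 4 weeks, from 10 weeks of age, a Western type diet with 0.04% cafestol and 0.02% kahweol by weight. The 7 control mice carried the same transgene and ate the same diet, with 15 g fat and 0.25 g cholesterol per 100 g, without the diterpenes. Liver poly(A) RNA of each cafestol mouse, in Cy5, was hybridised on 2 cDNA arrays against control liver RNA in Cy3, giving 16 arrays. No label names single control mice, so the log2 ratio against 0 was the test, and it leaves out the spread of the controls. No array had the dyes swapped, so a gene with a dye effect carries it in the ratios of all 8 mice. The mouse identifiers fall into a series of 4 SY and a series of 4 TP mice, whose meaning no label gives. Array titles carry the code c3z for SY and bl7 for TP mice, except that SY518Z had an array of each code, so series and code can hardly be told apart.

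Values are log2 ratios as deposited, and no label or header says which channel was divided by which. A negative ratio therefore means only the side on which the transferase Gstm1 lay (-2.48 ± 0.23, SD, n = 8 mice), and a positive ratio the side of the bile acid enzyme Cyp7a1 (1.56 ± 0.38). Between 8094 and 9314 of 9596 probes had a value per array, every array had a median of 0, and precision is limited by the number of mice and by rounding, since the smallest step from 0 was 0.14. Means of 12 of the 37 members called were smaller than that step. A ratio gives no level, so no marker's presence in the liver could be checked. In whole liver, fewer cells of a type and less RNA per cell cannot be told apart. Nothing in the labels says that the mice were separate litters or were housed apart, so the p-values measure the spread among these mice alone.

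Hepatocytes secrete most plasma proteins, and these fold in the ER with the help of the Hsp70 protein Hspa5 (BiP), the Hsp90 protein Hsp90b1 (GRP94), the lectin chaperones Calr and Canx and the disulfide isomerases. Unfolded protein in the ER activates ATF6, IRE1 and PERK, and ATF6 acts with NF-Y on ER stress response elements in the promoters of these genes. Unfolded protein in the cytosol activates heat shock factor 1, which binds heat shock elements and induces Hsp70, Hsp90, their DnaJ partners and Hsp110.

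RefSeq promoter windows (build GRCm38.p6, 250 bases before to 50 after each start site) were found for 57 of the 68 members, 70 windows in all, and were searched on both strands. Members without a window, among them Manf, Hsp90aa1, Ppic and Hspa9, could not be searched for any element. The ER stress response element, spelled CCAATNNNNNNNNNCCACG, was in 39 of 32851 windows of all genes (0.119%). It was in windows of 5 of the 17 ER members that have one (Hspa5, Calr, Hsp90b1, Canx and Dnajc3) and of 0 of 37 cytosolic members. The stretches are shown because the diet ratios of these 5 genes, given further on, spread over the whole range from the lowest member to 0. Capitals mark the element or its reverse complement, and each line reads 5′ to 3′ in the gene's direction.
Hspa5, chr2:34771840-34772089, plus strand, the whole part before the start site: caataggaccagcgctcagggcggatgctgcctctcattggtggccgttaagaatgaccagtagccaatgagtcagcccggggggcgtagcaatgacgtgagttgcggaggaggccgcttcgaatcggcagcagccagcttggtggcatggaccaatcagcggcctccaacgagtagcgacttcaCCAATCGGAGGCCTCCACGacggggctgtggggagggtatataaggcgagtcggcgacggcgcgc
Calr, chr8:84847055-84847113, minus strand: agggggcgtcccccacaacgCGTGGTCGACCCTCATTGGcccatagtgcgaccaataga
Hsp90b1, chr10:86705513-86705676, minus strand, holding 2 elements: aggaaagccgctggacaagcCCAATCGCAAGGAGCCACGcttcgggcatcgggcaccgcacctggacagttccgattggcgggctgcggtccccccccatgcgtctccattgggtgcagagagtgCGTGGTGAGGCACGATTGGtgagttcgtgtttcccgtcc
Canx, chr11:50325780-50325838, minus strand: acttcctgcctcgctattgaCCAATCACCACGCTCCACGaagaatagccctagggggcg
Dnajc3, chr14:118937807-118937865, plus strand: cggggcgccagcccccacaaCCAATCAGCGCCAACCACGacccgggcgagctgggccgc

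A strict heat shock element, GAANNTTCNNGAA, was in 198 of the 32851 windows (0.603%). Among members it was in windows of Hspe1, Dnajb6 and Hsph1. Hspe1, the mitochondrial co-chaperonin Hsp10, held it on both strands, in overlapping positions, and is shown with the bases of both in capitals.
Hspe1, chr1:55088039-55088096, plus strand: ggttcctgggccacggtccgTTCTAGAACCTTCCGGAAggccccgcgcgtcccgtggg
The ER stress response element II, ATTGGNCCACG, was in 12 windows of all genes (0.0365%) and in those of 0 members that have a window. Manf and Hsp90aa1 have none, so neither this element nor the heat shock element could be looked for there. The unfolded protein response element, TGACGTGG, was in 222 windows (0.676%), including those of the members Dnajc25 and Fkbp1b. The strict heat shock element was not matched in the windows of Hspa1a, Dnajb1 or Dnaja1. Looser spellings of it were not searched, so these windows may hold them. A match describes the letters and says nothing of binding. Canx, Dnajb6 and Dnajc25 were named here after their values were seen.

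Of the 67 members tested, 37 differed from 0 (limma, adjusted p under 0.05 over all 8348 genes and probes), against 43.4% of everything tested. The share on the negative side was larger: 28 members (41.8%) were negative, against 25.4% of everything tested, and 9 (13.4%) were positive, against 18.0%. The median log2 ratio was -0.07 over the members and -0.02 over everything tested. The differences were small, and 2 of the 37, Hspa5 and Manf, reached 1.5-fold, as did 63 of the 3622 called over the whole array. Of the 37 calls, 26 remained without each mouse in turn, 15 had the same sign in all 8 mice and 18 held when a spread of control mice equal to that of the cafestol mice was added. The 13 that kept their call under every alternative but a minimum fold were Manf, Calr, P4hb, Ppic and Dnajb12 of the ER, Dnaja1, Dnajb3, Dnajc22, Fkbpl, Hspa2, Hspb7 and Ppig of the cytosol and nucleus, and Dnajc19 of mitochondria. Hspa5 was not among them. How many of all 3622 calls were kept in these ways was not counted, so these counts do not set the members apart.

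ER chaperones lay mostly on the negative side. Of 19 tested, 12 were negative (63.2%), 2 positive and 5 did not pass, with a median of -0.14, which was -0.09 in the SY and -0.23 in the TP mice alone. Cytosolic and nuclear members had 15 negative (35.7%), 5 positive and 22 that did not pass among 42 tested, with a median of -0.05. Of the 4 mitochondrial members 1 was negative, 1 positive and 2 did not pass. Everything tested had 25.4% negative and 18.0% positive calls, beside which these counts and those further on are to be read. These shares and medians are descriptions, and the difference between compartments was not tested.

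**Figure D1:**
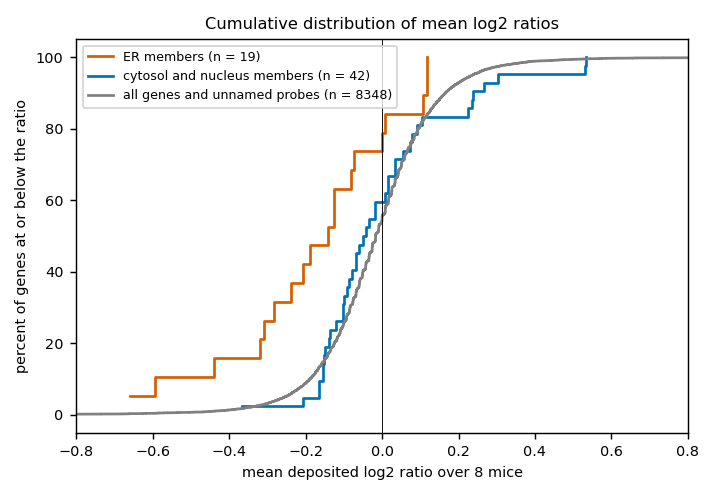
Cumulative percent of genes at or below each mean log2 ratio, for the 19 ER members, the 42 tested cytosolic and nuclear members and all 8348 genes and unnamed probes. The curve of the ER members runs left of the other curves through most of its range, with a median of -0.14, and ends at 0.12.

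Hspa5, the ER Hsp70 that binds newly made chains and holds the stress sensors inactive, had the lowest ratio of the set. Its log2 ratio was -0.85 in SY518Z, -0.26 in SY521RL, -0.20 in SY522ROB and -0.68 in SY524ROB+L, and -1 in TP4163, -0.93 in TP4168, -1.04 in TP4205 and -0.32 in TP4215. All 8 mice were negative, with 3 TP mice lowest and with SY521RL, SY522ROB and TP4215 nearest to 0. The mean was -0.66 ± 0.35 (SD, n = 8), a 1.58-fold difference (limma, adjusted p = 0.000246). On the c3z arrays alone, which come from the SY mice, it was -0.50 and did not pass (adjusted p = 0.0549). Manf, a small ER protein that is secreted and acts with Hspa5, ranged from -0.89 in TP4168 through a median of -0.65 to -0.14 in SY522ROB. Its mean of -0.59 ± 0.27 was a 1.51-fold difference (limma, adjusted p = 9.97e-05), and the order of its mice was close to that of Hspa5.

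The probes of the lectin chaperones, which hold glycoproteins in the folding cycle, did not share a ratio. Calr was negative in all 8 mice, from -0.63 in SY518Z through a median of -0.46 to -0.26 in SY522ROB and TP4215. Its mean was -0.44 ± 0.14 (limma, adjusted p = 1.79e-05). Its membrane-bound relative Canx was listed at 0 on all 16 arrays. Of 7729 probes with 16 values, 3 were 0 on every array, so this probe's lack of any spread was uncommon on the array. Whether its 0 describes Canx RNA was not tested.

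All 3 protein disulfide isomerases, which form and shuffle disulfide bonds, were negative. P4hb, which is also a subunit of prolyl 4-hydroxylase and of the lipid transfer complex that loads apolipoprotein B, lay between -0.20 and -0.14 in the 4 SY mice and between -0.54 and -0.26 in the 4 TP mice. The mouse means of the series did not overlap, but single arrays of SY518Z, SY521RL and SY522ROB read -0.26, as did both arrays of TP4215. How many genes of the whole array separate the series in this way was not counted. The mean over all 8 mice was -0.32 ± 0.17 (limma, adjusted p = 0.000446). Pdia3, the isomerase that works with Calr and Canx, had 7 negative mice and a 0 in SY522ROB, with a mean of -0.31 ± 0.20 (adjusted p = 0.00133). Pdia4 was at -0.14 ± 0.10 (adjusted p = 0.00623), on the same side in 7 mice and at 0 in the other.

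The DnaJ proteins of the ER, which pass clients to Hspa5 and stimulate its ATPase, went to both sides: 4 of 7 were negative and 1 was positive. Dnajc3, which also inhibits the kinase PERK, lay between -0.49 and -0.26 in 7 mice and at 0.26 in TP4215. Its mean was -0.28 ± 0.23 (limma, adjusted p = 0.00533). Dnajb9, an ER stress target that restrains IRE1, averaged -0.21 ± 0.18 (adjusted p = 0.00906), and the membrane protein Dnajb12 averaged -0.13 ± 0.05 (adjusted p = 0.00332). The fourth negative member, Dnajc25 (-0.08 ± 0.07, adjusted p = 0.0444), lost its call without any single mouse but TP4168, with adjusted p of up to 0.0946. Dnajc14 was positive at 0.12 ± 0.11 (adjusted p = 0.0289) and lost its call without SY518Z, SY521RL, SY522ROB or TP4215, with adjusted p between 0.0568 and 0.0707. Dnajc1 (0.11 ± 0.15, adjusted p = 0.0838) and Dnajb14 (0.01 ± 0.14) did not pass, though Dnajc1 did without SY524ROB+L (adjusted p = 0.0418).

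Among prolyl isomerases of the ER, the cyclophilin Ppic was negative in all 8 mice, between -0.32 and -0.14, with a mean of -0.24 ± 0.06 (limma, adjusted p = 5.47e-05). Fkbp2, a luminal FK506-binding protein, averaged -0.19 ± 0.12 (adjusted p = 0.00267). Fkbp9 was on the other side at 0.12 ± 0.11 (adjusted p = 0.0249), but not without TP4163 (adjusted p = 0.0552) or TP4205 (0.0658). With Dnajc14 it made up the positive ER members, so their count of 2 was 1 without any one of SY518Z, SY521RL, SY522ROB, TP4163, TP4205 or TP4215, and 3 without SY524ROB+L. Fkbp7 did not pass (-0.07 ± 0.15, adjusted p = 0.227).

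Hsp90b1, the Hsp90 of the ER and carrier of a pair of ER stress response elements, did not pass. It was at -0.26 in SY518Z, 0.07 in SY521RL, 0.32 in SY522ROB and -0.20 in SY524ROB+L, and at -0.38 in TP4163 and TP4168, -0.43 in TP4205 and 0.26 in TP4215. The mice fell on both sides of 0, with a mean of -0.12 ± 0.30 (limma, adjusted p = 0.252). The 5 genes with the element therefore held 3 negative calls (Hspa5, Calr and Dnajc3) and 2 members that did not pass (Hsp90b1 and Canx).

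**Figure D2:**
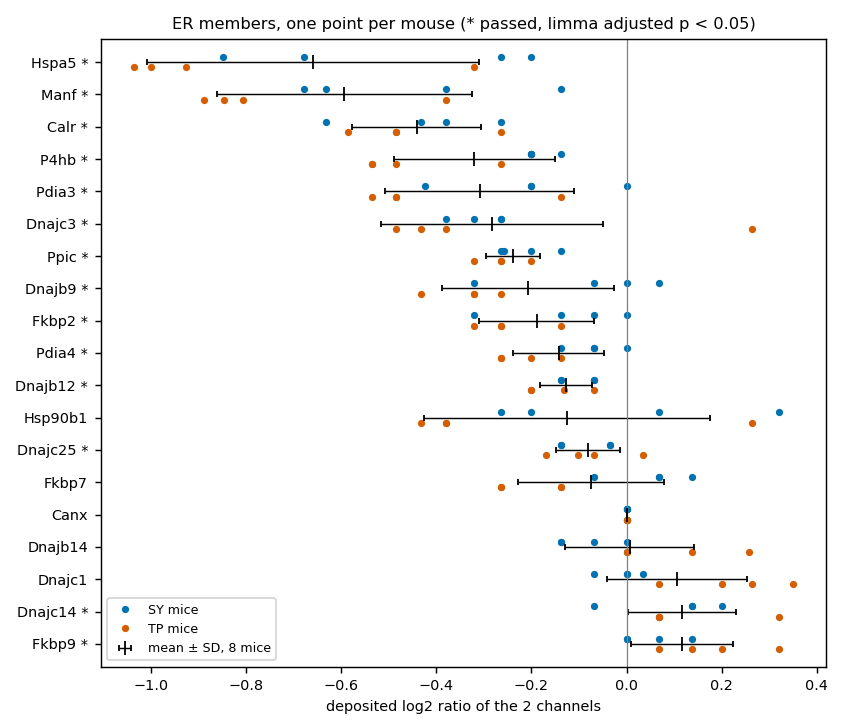
Deposited log2 ratio of the 19 ER members, with 1 point per mouse (SY mice above TP mice within each gene) and the mean ± SD over 8 mice, and a star where limma's adjusted p was under 0.05. The points of Hspa5, Manf and Calr all lie below 0, those of Canx all lie at 0, and Dnajc14 and Fkbp9 are the members that passed above 0.

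The rest of the ER folding and export machinery was counted from a list of genes outside the set, 41 of them tested, on the same fit. Of these 23 were negative, 3 positive and 15 did not pass, against 25.4% negative and 18.0% positive over everything tested. Their median was -0.14. Sec61a1, the pore of the ER translocon, averaged -0.41 ± 0.16 and was negative in 8 of 8 mice. Nucb1 (-0.37 ± 0.07), the oligosaccharyltransferase subunit Rpn2 (-0.36 ± 0.08), the translocon-associated protein Ssr1 (-0.34 ± 0.14) and the retrotranslocation ATPase Vcp (-0.33 ± 0.12) followed. The transferase subunit Ddost (-0.28 ± 0.17) and the KDEL receptor Kdelr2 (-0.28 ± 0.09), which returns Hspa5 and Calr to the ER, were also negative. Sec61a2, a paralog of the pore, was on the other side at 0.42 ± 0.27, positive in 8 of 8 mice, so both pore genes were read with opposite signs. All of these named genes passed, with adjusted p of at most 0.00117 (limma).

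Among stellate, macrophage and lymphocyte markers more genes were called negative than positive, with exceptions. Over everything tested, 25.4% were negative and 18.0% positive. Of 12 stellate and fibroblast genes 8 were negative and 0 positive (median -0.20, with mouse medians between -0.53 in SY518Z and 0 in SY522ROB), with Acta2 (-0.49 ± 0.28), Col4a1 (-0.46 ± 0.17) and Col4a2 (-0.34 ± 0.20) lowest. The Kupffer cell and macrophage list gave 7 negative and 1 positive of 11 genes (median -0.23). Lowest were Cd68 (-0.65 ± 0.22), Lgals3 (-0.58 ± 0.32) and Ctss (-0.38 ± 0.26), and Cd163 was positive (0.17 ± 0.10). Clec4f (-0.05 ± 0.11), Adgre1 (-0.03 ± 0.21) and Marco (-0.16 ± 0.48) did not pass. Of 9 lymphocyte genes 5 were negative, with Cd52 lowest at -0.40 ± 0.19, and 1 was positive, Cd3d at 0.15 ± 0.14. Cd3e (0.03 ± 0.11) was among those that did not pass. The secretory cells that hold most ER, plasma cells and pancreatic acinar cells, gave 1 positive and 1 negative of 4 genes (Sdc1 at 0.21 ± 0.08 and Jchain at -0.19 ± 0.17) and 1 positive and 2 negative of 6 genes (Cpb1 at 0.15 ± 0.10, Reg1 at -0.34 ± 0.14 and Pnliprp1 at -0.20 ± 0.24). Of 9 hepatocyte genes 2 were negative (Apoa1 at -0.52 ± 0.35 and Trf at -0.41 ± 0.18) and 2 positive (Fgb at 0.23 ± 0.11 and Apob at 0.12 ± 0.12). By mouse, the ER members had medians of -0.20 in SY518Z, -0.07 in SY521RL, 0 in SY522ROB and -0.14 in SY524ROB+L, and of -0.26 in TP4163, TP4168 and TP4205 and -0.14 in TP4215. The part of these cell types in the ER result was not tested.

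The widest spreads among mice of the set belonged to heat-inducible chaperones of the cytosol, grouped here after their values were seen. Other cytosolic chaperones had narrower spreads, such as Fkbp4 (SD 0.16), Dnajb4 (0.14) and Dnaja4 (0.12). Of Hspa1a, Hsp90aa1, Dnajb1, Hsph1 and Dnaja1, the mean of Dnaja1 passed and those of the other 4 did not. Hspa1a, the stress-inducible Hsp70, was at -0.13 in SY518Z, -0.22 in SY521RL, -0.13 in SY522ROB and -0.13 in SY524ROB+L, against 2.47 in TP4163, 2.57 in TP4168, 1.32 in TP4205 and -1.48 in TP4215. The SY mice lay within a narrow band just below 0, 3 TP mice were far above it and TP4215 was far below it. The mean of 0.53 ± 1.44 did not pass (limma, adjusted p = 0.288), and in the SY mice alone it was -0.16 (adjusted p = 0.0194). The SD of Hspa1a among mice ranked 1 of 8348, where the median SD was 0.106. The widest gap between the 2 arrays of a mouse was 0.13, and both probes of the gene put the same 3 mice high and TP4215 low. In SY518Z, the mouse with an array of each code, the bl7 and the c3z array both read -0.13. That is 1 SY mouse, and the part of array code in the spread of Hspa1a was not tested. A cDNA probe for Hspa1a can also bind its near-identical copy Hspa1b, and the ratio does not tell which channel varied.

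Hsp90aa1, the inducible cytosolic Hsp90, ordered the mice in a like way. It was at -0.26 in SY518Z, -0.63 in SY521RL, 0 in SY522ROB and -0.14 in SY524ROB+L, and at 1.04 in TP4163, 1.29 in TP4168, 0.58 in TP4205 and -1.04 in TP4215. Its mean was 0.11 ± 0.81 (limma, adjusted p = 0.72), and its SD ranked 5 of 8348. Dnajb1, the Hsp40 that partners inducible Hsp70, had SY values of -0.07, 0, 0.14 and 0.26 and TP values of 1.202, 1.07, 0.63 and -1.10. The mice are listed as for Hsp90aa1, and their ranks differed in part between the genes. The mean was 0.27 ± 0.73 (adjusted p = 0.299), with an SD that ranked 7. Again 3 TP mice were highest and TP4215 lowest.

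Hsph1, an Hsp110 that recharges Hsp70 with nucleotide, was at -0.14, 0, 0.14 and 0.14 in SY518Z, SY521RL, SY522ROB and SY524ROB+L, and at 0.81, 0.58, 0.54 and -0.26 in TP4163, TP4168, TP4205 and TP4215. It averaged 0.23 ± 0.38 and did not pass (limma, adjusted p = 0.102). Dnaja1, a DnaJ partner of constitutive Hsp70, was the exception that passed. With mice listed as for Hsph1, it was at 0.49, 0.38, 0.32 and 0.26 in the SY mice. The TP mice had 0.85, 1.04, 0.93 and 0. Dnaja1 had the same 3 highest mice and the same lowest mouse, but no mouse below 0, and averaged 0.53 ± 0.37 (limma, adjusted p = 0.00137), a 1.45-fold difference. Without TP4215, Dnajb1 (0.46, adjusted p = 0.0261) and Hsph1 (0.29, adjusted p = 0.0357) passed on the positive side. Hspa1a and Hsp90aa1 did not pass without it either.

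**Figure D3:**
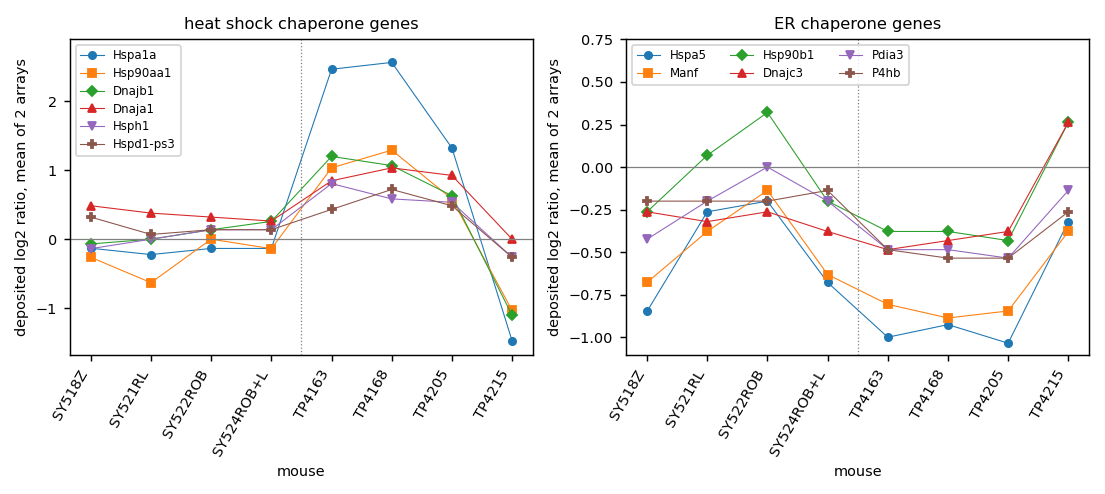
Deposited log2 ratio (mean of 2 arrays) in each mouse, SY mice left of the dotted line and TP mice right of it, for 6 heat shock chaperone genes (left) and 6 ER chaperone genes (right), with thin lines joining the values of a gene. In TP4163, TP4168 and TP4205 the heat shock genes are high (Hspa1a at 1.32 to 2.57) and the ER genes shown low (Hspa5 at -1.04 to -0.93). TP4215 departs from them in both panels. ER members not shown, such as Calr, Dnajc1 and Fkbp9, order the mice otherwise.

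The same 3 TP mice that were highest for these genes were the 3 lowest for Hspa5, Manf, P4hb, Pdia3, Pdia4 and Hsp90b1. Other ER members did not follow: Calr was lowest in SY518Z, Dnajc25 in TP4215, and Dnajc1, Dnajb14 and Fkbp9 in SY mice. How many genes of the whole array order the mice in this way was not counted. TP4215, lowest for Hspa1a, Hsp90aa1, Dnajb1, Hsph1 and Dnaja1, was among the 3 mice nearest to or above 0 for Hspa5, Hsp90b1 and Dnajc3. This is a description of 8 mice, in which genes share RNA, arrays and controls.

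**Figure D4:**
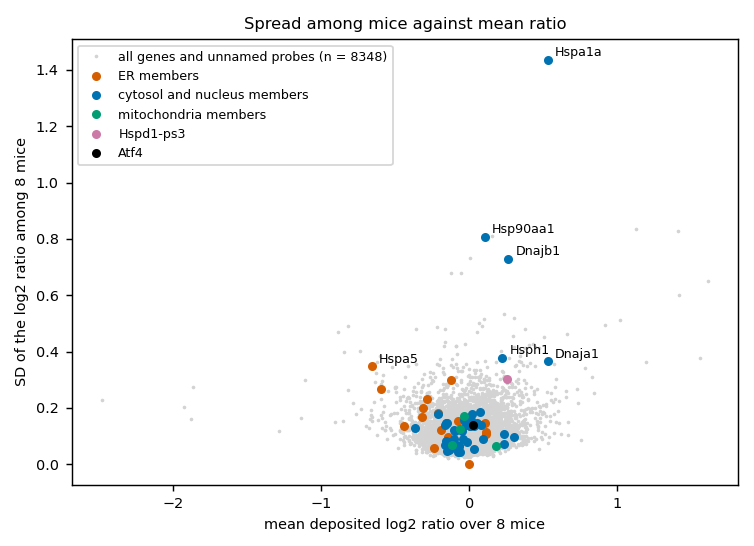
SD among 8 mice against mean log2 ratio for each of the 8348 genes and unnamed probes (grey) and for the members by compartment (colours). Hspa1a stands at the top with an SD of 1.44, Hsp90aa1 and Dnajb1 follow at 0.81 and 0.73, and most members lie in the cloud around the median SD of 0.106.

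The other cytosolic and nuclear members had small ratios of both signs. The median SD of the 42 tested in this compartment was 0.118, against 0.106 over everything tested. On the positive side, Dnajc22 was between 0.14 and 0.47 in all 8 mice, with a mean of 0.30 ± 0.10 (limma, adjusted p = 5.28e-05). The nuclear cyclophilin Ppig averaged 0.24 ± 0.07 (adjusted p = 9.68e-05), and Cct7, a subunit of the chaperonin TRiC that folds actin and tubulin, averaged 0.24 ± 0.11 (adjusted p = 0.000414). The fifth, Dnajc5, the cysteine string protein (0.09 ± 0.09, adjusted p = 0.0443), lost its call without any one of 6 mice, all but SY521RL and SY524ROB+L, with adjusted p of up to 0.12.

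On the negative side, Dnajb3, a DnaJ protein known from the testis, was lowest with a mean of -0.37 ± 0.13 (limma, adjusted p = 4.46e-05), negative in all 8 mice. The nuclear isomerase Fkbp3 averaged -0.21 ± 0.18 (adjusted p = 0.00857) and Fkbpl -0.17 ± 0.07 (adjusted p = 0.000984). Of the Hsp70 family, the distant member Hspa12a (-0.16 ± 0.14), the Hsp110 protein Hspa4 (-0.15 ± 0.08) and the testis Hsp70 Hspa2 (-0.15 ± 0.05) were negative, with adjusted p of at most 0.0107. Fkbp1b, which binds ryanodine receptors (-0.16 ± 0.15, adjusted p = 0.0171), lost its call without TP4205 (0.0508). The small heat shock protein Hspb9 (-0.15 ± 0.15, adjusted p = 0.0208) lost its call without TP4163, TP4168 or TP4205 (0.0536 to 0.0586). The other 7 called negative members lay between -0.14 and -0.08. The 18 cytosolic members that did not pass, beside Hspa1a, Hsp90aa1, Dnajb1 and Hsph1, had means between -0.10 and 0.08. Of these Dnaja4 passed without SY524ROB+L (-0.12, adjusted p = 0.0266) and Dnajb4 without TP4215 (0.11, adjusted p = 0.0353).

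By family, counted over all compartments, the 9 Hsp70 and Hsp110 members had 4 negative and 0 positive, the 21 tested DnaJ members 8 negative and 5 positive, and the 10 FK506-binding members 5 negative and 1 positive. The 5 cyclophilins had 2 negative and 1 positive, and the 3 small heat shock proteins 2 negative and 0 positive. With 25.4% negative and 18.0% positive over everything tested, counts in families this small are descriptions only. Where a member was read by several probes, their means could differ in size: the probes of Hspa4 averaged -0.21 and -0.10, those of Dnajc2, a ribosome-bound DnaJ protein, -0.20 and -0.08, and those of Hspa1a 0.63 and 0.44. In Hspa4l, which did not pass, the 3 probes averaged 0.09, -0.03 and close to 0.

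TRiC, the cytosolic chaperonin ring, was read through 8 members, Tcp1 and Cct2 to Cct8. Of them 1, Cct7, was positive, Cct5 (-0.10 ± 0.07) and Tcp1 (-0.09 ± 0.06) were negative, and Cct2, Cct3, Cct4, Cct6a and Cct8 did not pass, with means between -0.09 and 0.03. The calls of Cct5 and Tcp1 were weak: Cct5 lost its call without TP4163 (limma, adjusted p = 0.0533), and Tcp1 without any mouse but SY518Z and SY522ROB, with adjusted p of up to 0.0766. Cct6a passed on the negative side without TP4215 (-0.13, adjusted p = 0.0103). These were named as a complex after their values were seen.

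**Figure D5:**
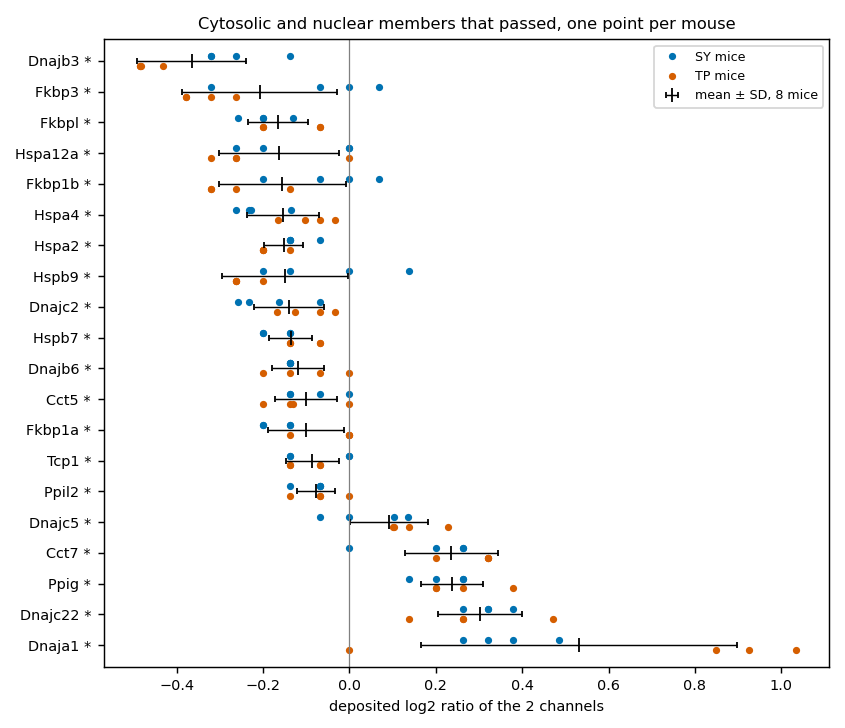
Deposited log2 ratio of the 20 cytosolic and nuclear members that passed, with 1 point per mouse (SY above TP within each gene) and the mean ± SD over 8 mice. Dnaja1 has the widest spread, between 0 and 1.04, while the 15 negative members lie between -0.49 and 0.14 in single mice.

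Genes of the heat shock response and partners of cytosolic or mitochondrial chaperones were counted from a list outside the set, 20 of them tested. In this list 9 were negative, 1 positive and 10 did not pass, with a median of -0.09. The shares over everything tested were 25.4% negative and 18.0% positive. The Hsp70 cochaperone St13 (-0.26 ± 0.10), the Hsp90 cochaperone Ptges3 or p23 (-0.26 ± 0.12) and the nucleotide exchange factor Bag1 (-0.22 ± 0.07) were negative in 8 of 8 mice, as were Cryaa (-0.21 ± 0.08) and the prefoldin subunit Pfdn6 (-0.17 ± 0.03). The myosin chaperone Unc45a averaged -0.19 ± 0.12. Ubqln1, which carries ubiquitinated clients to the proteasome, was positive in 8 of 8 mice at 0.27 ± 0.14. All of these passed with adjusted p of at most 0.00287 (limma). Bag3, a heat shock factor target, did not pass (0.05 ± 0.36, adjusted p = 0.693).

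Mitochondrial members were few. Dnajc19, part of the motor that pulls proteins into the matrix, was positive in 8 of 8 mice at 0.18 ± 0.07 (limma, adjusted p = 0.000451). Dnajc30 was negative at -0.12 ± 0.07 (adjusted p = 0.00743). The matrix Hsp70 Hspa9 (-0.06 ± 0.13, adjusted p = 0.275) and Hspe1 (-0.03 ± 0.17, adjusted p = 0.632) did not pass. Hspe1, with the overlapping heat shock element matches shown above, was between -0.32 in TP4215 and 0.26 in TP4168.

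The probe annotated to Hspd1-ps3 is a cDNA that cannot be told from transcripts of Hspd1, the mitochondrial chaperonin, by its name alone. It was at 0.32, 0.07, 0.14 and 0.14 in SY518Z, SY521RL, SY522ROB and SY524ROB+L, and at 0.43, 0.72, 0.49 and -0.26 in TP4163, TP4168, TP4205 and TP4215, with TP4215 the single mouse below 0. The mean was 0.26 ± 0.30 (limma, adjusted p = 0.0291), and the call was lost without SY518Z, TP4163, TP4168 or TP4205, with adjusted p between 0.0634 and 0.0785. Atf4, the transcription factor downstream of PERK, did not pass, with a mean of 0.03 ± 0.14 (adjusted p = 0.675).

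SY and TP mice were compared directly, as SY minus TP, on the same fit. Of the members 2 passed, against 5.70% of everything tested, and 17 of the 67 had an unadjusted p under 0.05 (25.4%), close to the 2067 of all 8348 (24.8%). P4hb averaged -0.18 ± 0.03 in SY and -0.45 ± 0.13 in TP mice (SD, n = 4 each), a difference of 0.27 (limma, adjusted p = 0.0394). Fkbp7, an ER prolyl isomerase, averaged 0.05 ± 0.09 in SY and -0.20 ± 0.07 in TP mice, a difference of 0.25 (limma, adjusted p = 0.0384). Both calls rest on few mice: P4hb passed without SY518Z (adjusted p = 0.0308) or TP4215 (0.013) and Fkbp7 without SY518Z (0.013). In the other cases with 1 mouse left out the adjusted p was between 0.0554 and 0.129.

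The 5 largest differences were those of Hspa1a, Hsp90aa1, Hsph1, Dnajb1 and Dnaja1, and none passed over the 8 mice. Hspa1a averaged -0.16 ± 0.05 in SY and 1.22 ± 1.88 in TP mice, a difference of -1.38 (limma, adjusted p = 0.222). Hsp90aa1 averaged -0.26 ± 0.27 in SY and 0.47 ± 1.04 in TP mice, a difference of -0.73 (adjusted p = 0.258). Those of Hsph1, Dnajb1 and Dnaja1 were -0.38, -0.37 and -0.34. The count of members that passed moved with single mice: it was 7 without TP4215 (Dnaja1, Dnajb1, Hsp90aa1, Hspa1a, Hspd1-ps3, Hsph1 and P4hb), 11 without SY518Z, 2 without TP4163, 1 without TP4168 and 0 without any one of SY521RL, SY522ROB, SY524ROB+L or TP4205. The share of everything tested that passed with a mouse left out was not counted, so these counts cannot be set apart from the whole array. Since array code nearly follows the series, mouse series and array code cannot be told apart in these values.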

How the data were processed

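The deposited values of the 16 two-colour arrays are log2 ratios, per the labels and the values themselves. How the authors normalized them, treated background and set blanks was not stated in the sources used here. Each of the 144660 values is the signed log2 of a number with 1 decimal (10 times that number was whole within 0.01), which makes 0.14 the smallest step and leaves 31.8% at 0. Values were used as deposited.

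Genes came from the platform annotation, with Entrez identifiers matched to RefSeq (GRCm38.p6) for 7330 of 7407 probes with 1 symbol. The 437 probes with several symbols and 1752 with none stayed unnamed. Of the symbols matching the letters of the rule, 1 was no isomerase and was left out. Probes of a gene, then the arrays of a mouse, were averaged, and features with values in 6 or more mice were tested against 0, or as SY minus TP, with limma 3.58.1 in R 4.3.3 (lmFit, eBayes, two-sided, Benjamini-Hochberg over 8348 features, adjusted p under 0.05). The script was tested on simulated data. Named genes were the called members (up to 12 per compartment by size), up to 4 uncalled per compartment, the 5 largest SY minus TP differences, up to 8 called genes of each partner list and up to 3 of each cell type list. Cd163 and the macrophage and lymphocyte markers given as not passing were named besides these. The members and lists were chosen with earlier results of these data known. Hspd1-ps3, named as a pseudogene, was kept out of the compartments. Alternatives covered scaling, probe choice, blanks, single arrays, array code, series, a minimum fold, control spread and leaving out each mouse. Figures were drawn with matplotlib 3.10.9.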

Additional observations from a re-analysis of the deposited data

Results flagged for a closer look

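In 2 of the 67 members tested, 1 mouse lay far from the other 7, by a gap to its nearest neighbour of more than 0.526 of the whole range (Dixon's 95% value for 8 mice). Chance gives such a gap in about 1 in 20 groups. Dnajc3 was at 0.26 in TP4215 and between -0.49 and -0.26 elsewhere. Cct7 was at 0 in SY521RL and between 0.20 and 0.32 elsewhere.

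The diet ratio differed between the mouse series in 2 of the 67 members by a test of the difference itself, against 5.70% of everything tested. P4hb differed by 0.27 (SY minus TP; limma, adjusted p = 0.0394), and its adjusted p lay between 0.0219 and 0.0503 in the alternatives that kept all 8 mice, the highest under quantile normalization, which ended the call. Fkbp7 differed by 0.25 (limma, adjusted p = 0.0384), with 0.0142 to 0.0318 in those alternatives. Leaving out single mice ended both calls in most cases, as given above. The part of array code in these differences cannot be told apart from that of mouse series.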

How the results depend on the processing

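Of 37 called members, 13 kept their call under every alternative except a minimum difference of 1.2-fold, which 1 passed. Positive members numbered 9 as reported, 0 past 1.2-fold, and 5 with control spread added, in SY mice alone or on c3z arrays (6 to 10 without 1 mouse). Negative members numbered 28 as reported, 1 past 1.2-fold, 13 with control spread, and 17 in SY mice alone or on c3z arrays (23 to 27 without 1 mouse). Positive ER members numbered 1 on either single array of each mouse and 0 past 1.2-fold, with control spread, in SY mice or on c3z arrays (1 to 3 without 1 mouse), and negative ones 1, 7 and 6 past 1.2-fold, in SY mice and on c3z arrays (11 to 12). Positive cytosolic members numbered 0 past 1.2-fold and 3 in SY mice or on c3z arrays (4 to 7), and 6 with Hspd1-ps3 counted there, chosen after seeing the data. Negative cytosolic ones numbered 0 past 1.2-fold, 5 with control spread and 9 in TP mice alone (11 to 15). Mitochondrial members had 0 positive past 1.2-fold and 2 with Hspd1-ps3 counted there, also chosen after seeing the data, and 0 negative past 1.2-fold, with control spread, in SY mice or on c3z arrays. Between SY and TP mice 5 members passed with robust eBayes, 10 on arrays whose code follows the series, and 0 to 11 without 1 mouse. The share of everything tested that passed in these settings was not counted. Hspa1a turned to -0.16 in SY mice alone (limma, adjusted p = 0.0194) and on c3z arrays (0.0179). The settings with 4 mice hold fewer samples, and the cause of the other changes was not tested. The ER median of -0.14 was -0.09 in SY mice, -0.23 in TP mice and -0.24 on bl7 arrays, and the cytosolic median of -0.05 was -0.03 with arrays centred on their mean. The mitochondrial median of -0.05 was -0.07 in SY mice, -0.02 in TP mice, -0.08 on c3z arrays, -0.0046 on bl7 arrays and -0.03 with centred arrays, and -0.07 to -0.03 without 1 mouse. No compartment median changed sign under these alternatives. No paired analysis was possible because all arrays belong to 1 group. Control spread, dye effects and the direction of the ratio limit every value.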
